A study of Mus musculus with 9 samples.

Results

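The *Gadd45* stress genes and their mitogen-activated protein (MAP) kinase partners were followed in mouse embryonic fibroblasts (MEFs) that expressed a *CRX* gene from a placental or a marsupial mammal. The 7 genes are the paralogues *Gadd45a*, *Gadd45b* and *Gadd45g*, *Gadd45gip1* (whose product binds GADD45 proteins), and the kinase genes *Map3k4*, *Map2k7* and *Mapk14*, of 22068 genes listed. *Gadd45b* was chosen by its lower level with metatherian CRX than in control in these same libraries, and the other 6 were added for their relation to it. The values of *Gadd45b* are therefore given as a description in all comparisons, since each of them reuses libraries of that contrast. Its calls enter only the counts of members under alternative processing, which are no test of it.

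Primary C57Bl/6 MEFs at passage 2 were electroporated with a plasmid that carried V5-tagged human *CRX* (eutherian CRX), V5-tagged opossum *CRX* (metatherian CRX) or no homeobox gene (control), and all 3 plasmids also carried a puromycin resistance gene. CRX is a homeodomain transcription factor best known from photoreceptors, and the comparison asked how far the responses to the eutherian and the metatherian protein differ. All cells were kept in puromycin for 5 days, and the labels give 48 h of recovery after the selection, whereas the study's methods place this recovery before it. Each group has 3 libraries of polyA RNA, numbered 1 to 3. The libraries are of cells in culture, and the sources used here do not say whether they came from separate electroporations, so that p-values measure only the spread between these libraries. In such bulk samples, fewer cells of a type and less RNA per cell cannot be told apart.

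GADD45 proteins are small acidic proteins without enzymatic activity that are made when cells meet DNA damage, osmotic shock or cytokines. They bind MAP3K4 and release it from self-inhibition, and MAP3K4 then activates the kinases upstream of p38 and JNK. GADD45B also binds and blocks MAP2K7, a kinase that activates JNK. In the nucleus GADD45 proteins bind PCNA, the CDK1 and cyclin B1 complex and the CDK inhibitor p21, and they take part in active DNA demethylation. In fibroblasts and other cells *Gadd45b* is an early response gene of NF-κB and transforming growth factor β (TGF-β), and *Gadd45a* a target of p53.

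The libraries held from 54145701 to 94699657 counts on genes. Counts on mouse *Crx*, to which reads of a human transgene can align in part, were 627, 995 and 313 in the eutherian CRX libraries, 4, 0 and 0 in the metatherian CRX libraries and 0 in each control library, and a count of 0 is compatible with up to 3 counts. Opossum *CRX* itself was thus hardly seen in these counts, and its level was not analysed here. Genes that define fibroblasts were abundant in every library, with a summed level of 10 such genes between 18601 and 48845 CPM (counts scaled to a common library size), and it was lowest in the eutherian and metatherian CRX libraries numbered 3. For several results of the 7 genes that rest on the libraries numbered 3, values without some or all of these libraries are also given. Those of the gene lists without them are given with the lists or together after them.

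Levels are given as CPM, the counts of a gene scaled by the TMM method to the sum over the 10100 genes tested, and as FPKM where genes are compared with each other, since FPKM also divides by exon length. All 7 genes were among the genes tested. In control the mean level per exon length was 77.7 ± 8.10 FPKM (SD, n = 3) for *Gadd45g*, 29.1 ± 11.3 for *Gadd45b*, 21.2 ± 4.79 for *Gadd45a*, 20.4 ± 1.22 for *Mapk14*, 15.4 ± 1.59 for *Map2k7*, 11.7 ± 2.65 for *Gadd45gip1* and 6.50 ± 1.62 for *Map3k4*. *Gadd45g* lay above the others beyond their spread, whereas *Gadd45b*, *Gadd45a* and *Mapk14* overlapped. With metatherian CRX the order of the paralogues was *Gadd45g* at 29.1 ± 17.4 FPKM, *Gadd45a* at 22.2 ± 2.85 and *Gadd45b* at 11.7 ± 4.24. *Gadd45g* and *Gadd45a* overlapped there through replicate 3, at 9.90 and 23.8 FPKM. In replicates 1 and 2 *Gadd45g* remained the higher, at 33.7 and 43.8 FPKM against 18.9 and 23.9 FPKM.

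*Gadd45b* lies on mouse chromosome 10 (GRCm38, chr10:80930091-80932204, plus strand) and has 4 exons with 1266 bases. Its level in the control libraries numbered 1, 2 and 3 was 42.2, 47.7 and 20.6 CPM. In the eutherian CRX libraries it was 33.7, 32.6 and 14.7 CPM. In the metatherian CRX libraries it was 17.5, 18.3 and 8.64 CPM. Every metatherian CRX library lay below every control library, the eutherian CRX libraries overlapped both groups, and within each group the library numbered 3 was the lowest.

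The group means of *Gadd45b* were 36.8 ± 14.3 CPM (SD, n = 3) for control, 27.0 ± 10.7 for eutherian CRX and 14.8 ± 5.36 for metatherian CRX. The log2 fold change was -1.30 (SE 0.10) for metatherian CRX against control, -0.45 (SE 0.10) for eutherian CRX against control and -0.85 (SE 0.10) for metatherian against eutherian CRX. Between libraries of the same number, log2 CPM with metatherian CRX differed from control by -1.26, -1.38 and -1.25. The difference was thus similar at each number, which the choice of *Gadd45b* by this same contrast favours. With eutherian CRX the differences from control were -0.32, -0.55 and -0.49. *Gadd45b* had the 155th lowest log2 fold change of 10100 genes for metatherian CRX against control.

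**Figure D1:**
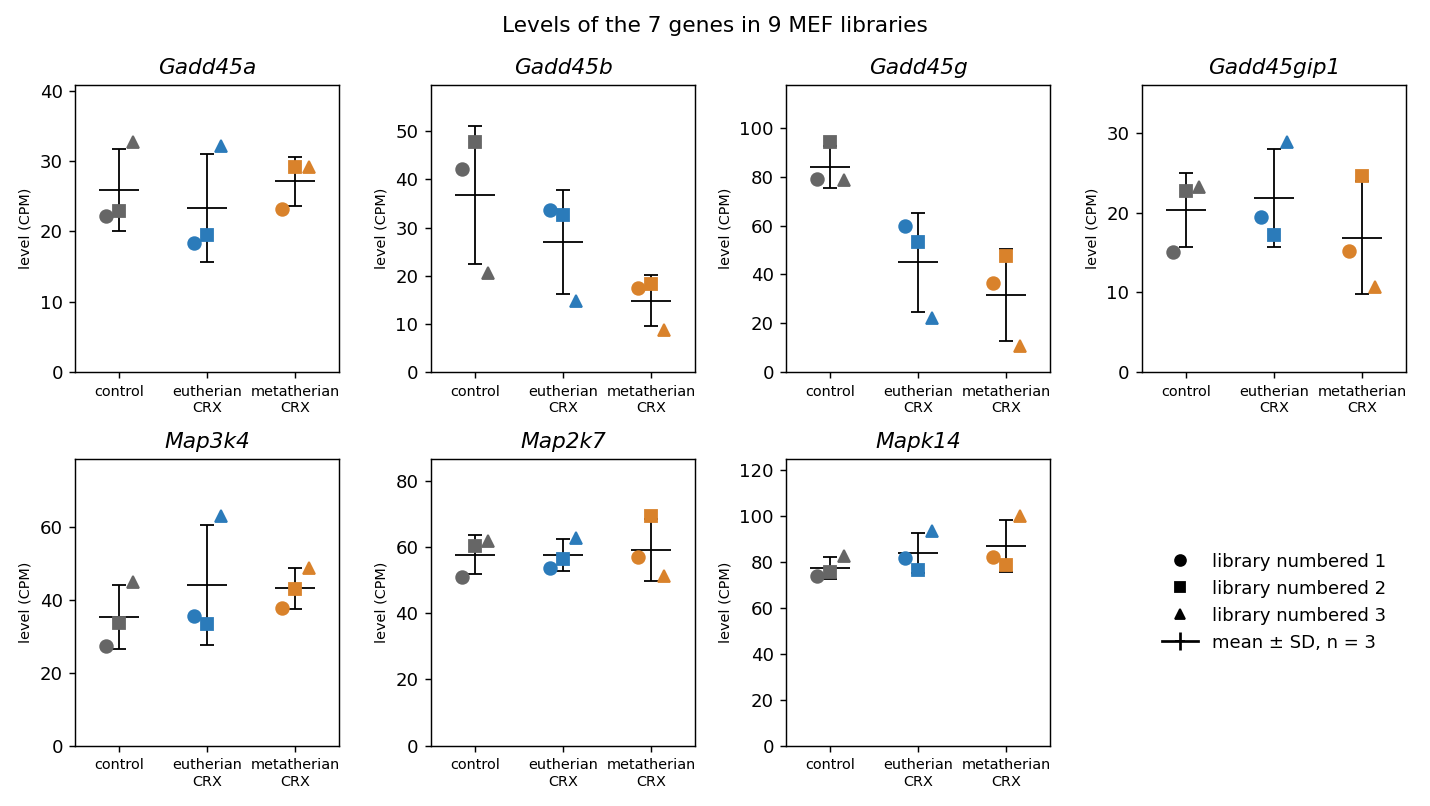
Level of each of the 7 genes in CPM (y axis, from 0) in the 3 libraries of each group (x axis), with symbols for the library number and bars for the mean ± SD. *Gadd45b* and *Gadd45g* are lower with metatherian CRX than in control, with control means of 36.8 and 84.0 CPM and metatherian CRX means of 14.8 and 31.5 CPM, and the kinase genes overlap between groups, with some libraries of both CRX groups above the control range.

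*Gadd45g*, the paralogue with the highest level in control, lies at chr13:51846675-51848475 (plus strand) with 4 exons and 1081 bases. Its level was 79.2, 94.1 and 78.7 CPM in control, 59.9, 53.4 and 21.9 CPM with eutherian CRX, and 36.4, 47.4 and 10.7 CPM with metatherian CRX. Both CRX groups lay wholly below control, and they overlapped with each other. The libraries numbered 3 of the CRX groups were far lower than their partners.

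For metatherian CRX against control the log2 fold change of *Gadd45g* was -1.68 (SE 0.38), with an unadjusted p of 0.0031 and an adjusted p of 0.10 (edgeR's quasi-likelihood test, Benjamini-Hochberg over 10100 genes), and it was lower in 3 of 3 pairs of the same number. It thus did not pass the threshold of 0.05. The same-number differences were -1.12, -0.99 and -2.88, a range wider than that of 98.4% of the genes or equal to it. Without the libraries numbered 3 the log2 fold change was -1.05 with an adjusted p of 0.0025 (edgeR), and the adjusted p was 0.049 without eutherian CRX replicate 3 alone and 1.2e-04 with DESeq2's Wald test on all libraries. In the other 16 alternatives it did not pass, with adjusted p between 0.077 and 0.70 (edgeR), among them 0.33 without the replicate block. For eutherian CRX against control it was -1.08 (SE 0.37; adjusted p = 0.45, edgeR), -0.61 without the libraries numbered 3, and -0.50 without control replicate 3. Metatherian CRX differed from eutherian CRX by -0.59 (SE 0.36; adjusted p = 0.58, edgeR).

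*Gadd45a* lies at chr6:67035096-67037407 (minus strand) with 4 exons and 1224 bases. Its level was 22.2, 22.9 and 32.7 CPM in control, 18.4, 19.6 and 32.2 CPM with eutherian CRX, and 23.1, 29.2 and 29.1 CPM with metatherian CRX. The 3 groups overlapped, and the libraries numbered 3 of control and eutherian CRX were the highest rather than the lowest. The log2 fold change against control was 0.09 (SE 0.15; adjusted p = 0.77, edgeR) with metatherian CRX and -0.17 (SE 0.15; adjusted p = 0.84) with eutherian CRX. Metatherian CRX lay above eutherian CRX by 0.26 (SE 0.15; adjusted p = 0.56, edgeR), and by 0.46 (adjusted p = 0.025) without the libraries numbered 3. In the other 18 alternatives it did not pass, and it was 0.10 (adjusted p = 0.93, edgeR) without the libraries numbered 2.

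The summed level of the 3 paralogues per exon length was 125, 143 and 116 FPKM in the control libraries. It was 97.0, 91.1 and 58.2 FPKM with eutherian CRX and 66.4, 82.1 and 40.5 FPKM with metatherian CRX. No CRX library reached the lowest control library. *Gadd45a* made up 14.5, 13.1 and 23.0% of this sum in control, 15.5, 17.5 and 45.2% with eutherian CRX and 28.5, 29.1 and 58.7% with metatherian CRX. *Gadd45g* made up between 58.8 and 62.9% in control, between 34.9 and 57.1% with eutherian CRX and between 24.4 and 53.3% with metatherian CRX. *Gadd45b* exceeded *Gadd45a* in control libraries 1 and 2 and in eutherian CRX libraries 1 and 2. It did so by 0.74 to 1.05 in log2 CPM, which is not divided by exon length. It was below *Gadd45a* in all 3 metatherian CRX libraries, with log2 CPM differences of -0.40, -0.68 and -1.75. It was also below *Gadd45a* in control replicate 3 (-0.66) and eutherian CRX replicate 3 (-1.13). These shares use the values that chose *Gadd45b* and were not tested.

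**Figure D2:**
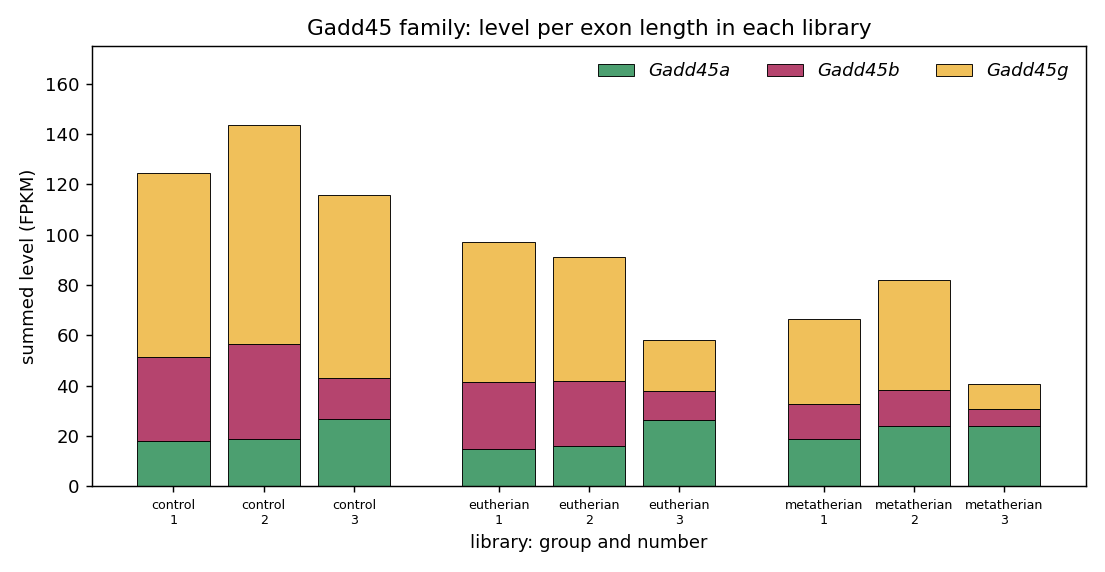
Level per exon length (FPKM, y axis from 0) of *Gadd45a*, *Gadd45b* and *Gadd45g*, stacked, in each library (x axis, group and number). The whole column is tallest in the control libraries, from 116 to 143 FPKM, while the *Gadd45a* segment lies between 15.0 and 26.7 FPKM in the 9 libraries.

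The promoters of the paralogues are shown because the experiment introduced a transcription factor and *Gadd45b* and *Gadd45g* were the members at lower levels. The RefSeq windows of the build GRCm38.p6 run from 250 bases before to 50 bases after a start site, and 6 of the 7 genes had 8 such windows, all but *Gadd45gip1*. The bases before the start site follow, 5′ to 3′ on the strand of the gene, with capitals for the letters of 3 common promoter elements, the CCAAT box (CCAAT), the TATA box (TATAAA) and an E-box (CACGTG).
*Gadd45a*, chr6:67037408-67037657, minus strand: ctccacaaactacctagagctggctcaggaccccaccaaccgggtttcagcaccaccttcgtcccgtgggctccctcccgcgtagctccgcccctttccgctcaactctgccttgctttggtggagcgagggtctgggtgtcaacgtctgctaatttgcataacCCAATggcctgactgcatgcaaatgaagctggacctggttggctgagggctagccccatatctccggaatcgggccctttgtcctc
*Gadd45b*, chr10:80929841-80930090, plus strand: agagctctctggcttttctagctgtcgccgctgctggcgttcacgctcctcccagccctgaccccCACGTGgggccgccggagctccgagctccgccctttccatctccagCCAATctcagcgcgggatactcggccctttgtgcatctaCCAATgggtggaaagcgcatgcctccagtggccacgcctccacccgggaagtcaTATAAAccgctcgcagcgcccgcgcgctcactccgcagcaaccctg
*Gadd45g*, chr13:51846425-51846674, plus strand: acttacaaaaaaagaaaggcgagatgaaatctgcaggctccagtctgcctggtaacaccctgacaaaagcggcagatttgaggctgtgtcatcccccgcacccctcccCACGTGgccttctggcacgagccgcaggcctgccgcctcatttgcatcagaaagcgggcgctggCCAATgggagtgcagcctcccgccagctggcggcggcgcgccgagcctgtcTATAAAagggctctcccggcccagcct

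*Gadd45b* and *Gadd45g* each held an E-box, at least 1 CCAAT box and a TATA box in that order, whereas *Gadd45a* held only the CCAAT box. In *Gadd45b* the E-box stood at -185, the CCAAT boxes at -139 and -100 and the TATA box at -46 from the start site. In *Gadd45g* the corresponding positions were -142, -78 and -27. Of 32851 mouse promoter windows of the same length, 37.4% held CCAAT, 13.6% TATAAA and 7.15% CACGTG on either strand. The motifs were chosen after the windows had been seen. Of the other windows of the 7 genes, those of *Map3k4* held none of these letters, 1 of *Mapk14* held CCAAT on the reverse strand at -9, and 1 of *Map2k7* held TATAAA on the reverse strand at -72.

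CRX is known to bind the core letters TAATCC. Among the 8 windows, only that of *Gadd45b* held them, on the reverse strand (GGATTA, in capitals) 26 bases into the transcript, in the 5′ untranslated region of the first exon.
*Gadd45b*, chr10:80930105-80930132, plus strand: tctgtcttcttGGATTAatttcgagggg
The core was present in 7.06% of all 32851 windows. A match is a description of letters, and no binding was measured in these data.

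*Gadd45gip1*, also known as CRIF1, encodes a protein of the large subunit of the mitochondrial ribosome that was also isolated as a partner of GADD45G. It lies at chr8:84832282-84835482 (plus strand) and has 2 exons with 1734 bases. Its level was 15.1, 22.7 and 23.3 CPM in control, 19.5, 17.2 and 28.8 CPM with eutherian CRX, and 15.2, 24.6 and 10.7 CPM with metatherian CRX. The groups overlapped, with the lowest level of the gene in metatherian CRX replicate 3 and the highest in eutherian CRX replicate 3. The log2 fold change was -0.27 (SE 0.33; adjusted p = 0.69, edgeR) with metatherian CRX and 0.13 (SE 0.33; adjusted p = 0.96) with eutherian CRX against control, and -0.40 (SE 0.34; adjusted p = 0.70) between them. Without metatherian CRX replicate 3 the first of these was 0.12, and without eutherian CRX replicate 3 the second was -0.20, so that neither direction held.

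The other genes of the large mitochondrial subunit, the *Mrpl* genes, were tested in 47 of 48 cases, and none passed the adjusted threshold in any comparison. With metatherian CRX their median log2 fold change against control was 0.0089, where 1 was higher (*Mrpl19*, 0.33) and 1 lower (*Mrpl16*, -0.30) at an unadjusted p under 0.05, against 9.04% and 10.5% of all genes. With eutherian CRX the median was 0.14 and 39 of 47 had a positive log2 fold change, as did 50.3% of all genes. In 4 of them the unadjusted p was under 0.05, where 2.23% of all genes were higher, and *Mrpl21* (0.35), *Mrpl1* (0.44) and *Mrpl22* (0.28) had the smallest p. Without the libraries numbered 3 the medians were 0.0074 and 0.089. *Gadd45gip1* lay close to both medians within its SE.

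*Map3k4* encodes the kinase that GADD45 proteins bind at the head of the cascade. It lies at chr17:12227621-12318806 (minus strand) with 27 exons and 5451 bases. Its level was 27.4, 33.9 and 44.9 CPM in control, 35.5, 33.5 and 63.1 CPM with eutherian CRX, and 37.7, 43.2 and 48.9 CPM with metatherian CRX. The groups overlapped, and the library numbered 3 was the highest in each. Metatherian CRX lay above control in 3 of 3 pairs, with a log2 fold change of 0.32 (SE 0.15; adjusted p = 0.31, edgeR), and without the libraries numbered 3 it was 0.40 with an adjusted p of 0.044, whereas the other 18 alternatives gave an adjusted p between 0.11 and 0.82 (edgeR, DESeq2). Eutherian CRX lay 0.29 above control (SE 0.15; adjusted p = 0.69, edgeR) and was higher in 2 of 3 pairs. This value was 0.18 without the libraries numbered 3, and lay between 0.14 and 0.44 with 1 library left out. Metatherian and eutherian CRX differed by 0.02 (adjusted p = 0.97, edgeR).

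*Map2k7*, the JNK kinase that GADD45B binds, lies at chr8:4238740-4247897 (plus strand) with 13 exons and 3731 bases. Its level was 50.8, 60.4 and 61.7 CPM in control, 53.5, 56.4 and 62.8 CPM with eutherian CRX, and 56.8, 69.3 and 51.1 CPM with metatherian CRX. The group means were within 1 SD of each other. The log2 fold change against control was 0.04 (SE 0.13; adjusted p = 0.91, edgeR) with metatherian CRX and 0.0024 (adjusted p = 0.9985) with eutherian CRX. With metatherian CRX the same-number differences were 0.16, 0.20 and -0.27. Without the libraries numbered 3 the log2 fold changes were 0.18 (adjusted p = 0.18, edgeR) and -0.013.

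*Mapk14* encodes p38α, the main p38 kinase of most tissues. It lies at chr17:28691342-28748405 (plus strand) with 15 exon intervals and 3788 bases, and the gene model lists another 15 intervals on an unplaced or alternate scaffold that were left out of its length. Its level was 73.9, 75.7 and 82.7 CPM in control, 81.7, 76.6 and 93.6 CPM with eutherian CRX, and 82.3, 78.7 and 99.97 CPM with metatherian CRX. The groups overlapped, although both CRX groups lay above control in 3 of 3 pairs. The log2 fold change was 0.16 (SE 0.086; adjusted p = 0.35, edgeR) with metatherian CRX and 0.11 (SE 0.086; adjusted p = 0.80) with eutherian CRX. Its values were 0.10 and 0.078 without the libraries numbered 3. Its SE was the smallest of the 7 genes, and its log2 fold changes against control were small beside those of *Gadd45b*.

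**Figure D3:**
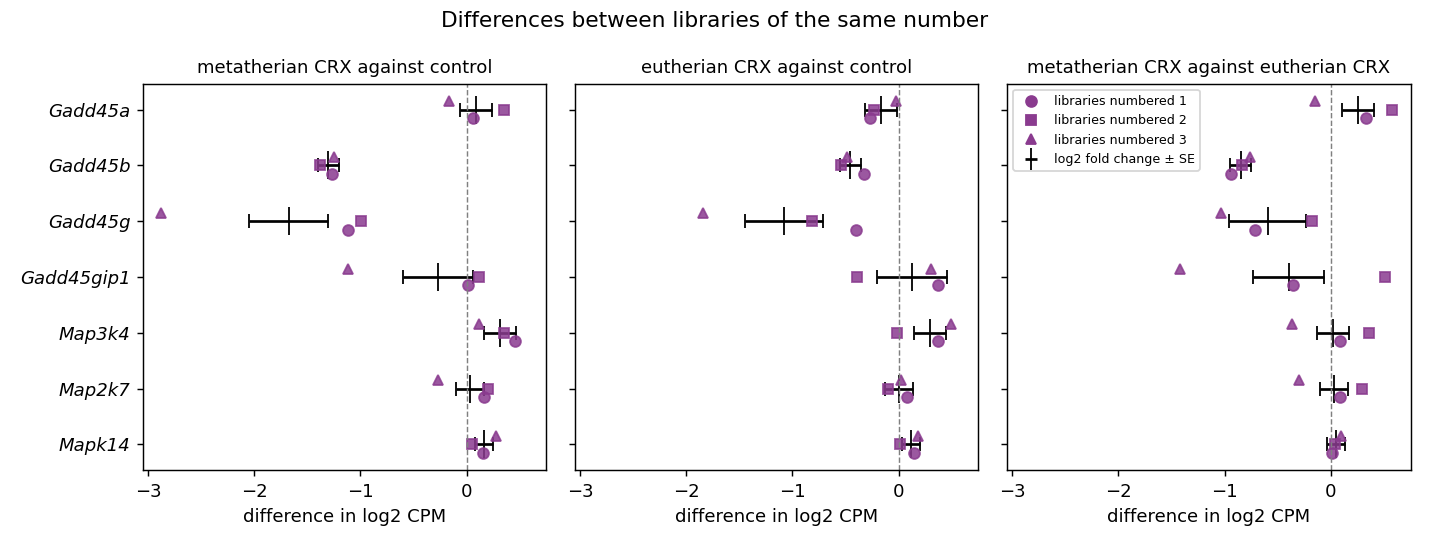
Difference in log2 CPM (x axis) between libraries of the same number for each gene (y axis) in 3 comparisons, with a symbol for each number, and the fitted log2 fold change ± SE in black. For metatherian CRX against control the 3 symbols of *Gadd45b* lie together at -1.26, -1.38 and -1.25, and those of *Gadd45g* spread from -0.99 to -2.88. Those of *Map3k4* (0.46, 0.35 and 0.12) and *Mapk14* (0.16, 0.055 and 0.27) lie above 0, and those of *Map2k7* on both sides of it.

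Apart from *Gadd45b*, which this contrast chose and which is left out of the counts that follow, 0 of the other 6 genes were called for metatherian CRX against control at an adjusted p under 0.05 by edgeR, where 0.0297% of all genes were. DESeq2 called 1 of the 6, *Gadd45g*, and 9.94% of all genes. At an unadjusted p under 0.05, 1 of the 6, *Gadd45g*, was lower, where 10.5% of all genes were, and 0 were higher, where 9.04% were. It was also the only gene of the 6 whose metatherian CRX libraries all lay below control, as for 12.3% of all genes. For eutherian CRX against control 0 of the 6 were called by edgeR or by DESeq2, where 0.604% of all genes were called by edgeR and 3.30% by DESeq2. In that comparison *Gadd45g* was lower at an unadjusted p under 0.05, where 6.34% of the genes were, and 0 were higher, where 2.23% were. Its eutherian CRX libraries all lay below control, as for 7.80% of all genes. The comparisons with control share the 3 control libraries.

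For metatherian against eutherian CRX, 0 of the 6 and 0 of all 10100 genes were called by edgeR at an adjusted p under 0.05, a background of 0%, with 1165 genes at an unadjusted p under 0.05. DESeq2 called 317 genes there (3.14%) and 0 of the 6. In edgeR 0 of the 6 had an unadjusted p under 0.05, where 4.13% of all genes were lower and 7.41% higher with metatherian CRX. Over all genes 748 were higher and 417 lower there, and upper-quartile scaling in place of TMM gave 597 and 574.

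The kinase cascade was followed with a list of 30 genes of the MAP3K, MAP2K, p38 and JNK tiers, of which 22 were tested. The list and its counts include the members *Map3k4*, *Map2k7* and *Mapk14*. None passed the adjusted threshold in a comparison. Shares of all genes at an unadjusted p under 0.05, beside which the counts of this and the following lists stand, were 9.04% higher and 10.5% lower with metatherian CRX and 2.23% higher and 6.34% lower with eutherian CRX. The median log2 fold change was 0.11 with metatherian CRX and 0.0055 with eutherian CRX against control, where the medians of all genes were -0.0080 and 0.0013. With metatherian CRX 2 had an unadjusted p under 0.05 and a higher level and 1 a lower level, against 9.04% and 10.5% of all genes, and 1 was higher with eutherian CRX, against 2.23%. *Mapk13*, which encodes p38δ, had 29.6 CPM in control on average, 63.6 with eutherian CRX (log2 fold change 1.12, SE 0.30; adjusted p = 0.29, edgeR) and 51.0 with metatherian CRX (0.78, SE 0.29; adjusted p = 0.22). It was higher in 3 of 3 pairs in both. With metatherian CRX, *Tab1* had a log2 fold change of -0.37 (SE 0.13) and *Tab3* one of 0.38 (SE 0.14), which were -0.24 and 0.23 without the libraries numbered 3, and both encode adaptors of the kinase TAK1.

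MAP2K3 and MAP2K6, which activate p38, and MAP2K4, which activates JNK, stand between MAP3K4 and its targets. *Map2k3* had log2 fold changes against control of 0.18 with metatherian CRX and 0.31 with eutherian CRX (adjusted p = 0.59 and 0.69, edgeR), which were 0.0057 and 0.074 without the libraries numbered 3. *Map2k4* had 0.03 and 0.0030, and -0.22 and -0.05 without those libraries. *Map2k6* was below the filter and was not tested, with 2.81, 2.52 and 6.74 CPM in control, 3.32, 3.87 and 21.9 CPM with eutherian CRX, and 3.72, 7.26 and 13.8 CPM with metatherian CRX. Its library numbered 3 was the highest in each group. The JNK genes *Mapk8* and *Mapk9* had log2 fold changes of -0.13 and 0.14 with metatherian CRX, and without the libraries numbered 3 of -0.38 (adjusted p = 0.054, edgeR) and 0.13. *Mapk11*, which encodes p38β, was not tested, with at most 8.25 CPM.

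Of 19 substrate kinases and transcription factors of p38, 18 were tested, with a median log2 fold change of -0.067 with metatherian CRX and 0.0082 with eutherian CRX. At an unadjusted p under 0.05, 2 were higher with metatherian CRX and 0 with eutherian CRX, and none was lower in either, where 9.04 and 2.23% of all genes were higher. *Mef2a*, a transcription factor that p38 phosphorylates, had 223 CPM in control and 406 CPM with metatherian CRX (log2 fold change 0.86, SE 0.15; adjusted p = 0.080, edgeR), and was higher in 3 of 3 pairs. *Mapkapk3* had a log2 fold change of 0.42 (SE 0.17), while *Mapkapk2*, the best known p38 substrate kinase, had 0.04 with metatherian and 0.07 with eutherian CRX. Of 9 phosphatases of p38 and JNK 7 were tested, with medians of 0.067 with metatherian CRX and -0.13 with eutherian CRX. In the comparisons with control 1 had an unadjusted p under 0.05, *Dusp1* with eutherian CRX (-0.98, SE 0.21; adjusted p = 0.16, edgeR). For metatherian against eutherian CRX 1 was higher at that threshold, where 7.41% of all genes were.

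Of 10 nuclear partners of GADD45 proteins 7 were tested, with median log2 fold changes of -0.075 with metatherian CRX and -0.0028 with eutherian CRX. With metatherian CRX 3 were lower at an unadjusted p under 0.05, namely *Pcna* (-0.47, SE 0.11; adjusted p = 0.10, edgeR), which encodes the replication clamp, the dioxygenase gene *Tet3* (-0.40, SE 0.11; adjusted p = 0.13) and *Cdk1* (-0.59, SE 0.17; adjusted p = 0.15), where 10.5% of all genes were lower. With eutherian CRX 1 was lower, *Cdk1* (-0.94, SE 0.17; adjusted p = 0.098, edgeR), where 6.34% of all genes were lower. *Cdkn1a*, which encodes p21, was abundant at 942 CPM in control and had log2 fold changes of 0.01 and -0.0028 with metatherian and eutherian CRX, and -0.08 and -0.13 without the libraries numbered 3. *Ccnb1*, which encodes cyclin B1, and *Tdg*, a DNA glycosylase gene, were below the filter, with at most 3.74 and 2.31 CPM.

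Regulators upstream of the *Gadd45* genes were tested in 17 of 19 cases, with medians of 0.012 and 0.0037. At an unadjusted p under 0.05, 1 was higher and 4 were lower with metatherian CRX, where 9.04 and 10.5% of all genes were, and 2 were lower with eutherian CRX, where 6.34% were. The NF-κB gene *Nfkb1* had a log2 fold change of -0.37 with metatherian CRX (SE 0.098; adjusted p = 0.13, edgeR), lower in 3 of 3 pairs, while its partner *Rela* had -0.06, and 0.14 without the libraries numbered 3. *Tgfbr2*, a TGF-β receptor gene, had -0.44 and -0.52 with metatherian and eutherian CRX, and *Smad3*, its signal transducer, 0.06 and 0.15, and -0.12 and -0.07 without the libraries numbered 3. *Atf4*, the transcription factor gene of the integrated stress response, had -0.43 (SE 0.089; adjusted p = 0.095, edgeR) and -0.33 (SE 0.089; adjusted p = 0.29). *Trp53*, which encodes p53, had 0.01 and 0.09, and 0.09 and -0.06 without those libraries.

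Of the other growth arrest and DNA damage genes all 13 listed were tested. With metatherian CRX 6 had a lower and 1 a higher level at an unadjusted p under 0.05, where 9.04% of all genes were higher and 10.5% lower. With eutherian CRX 5 were lower, where 6.34% of all genes were. The medians were -0.18 and -0.25, and 0 passed the adjusted threshold (edgeR). *Trib3* (-1.03, SE 0.20; adjusted p = 0.085, edgeR) and *Chac1* (-0.95, SE 0.19; adjusted p = 0.087), both targets of ATF4, and *Ddit4* (-0.48, SE 0.098; adjusted p = 0.088), an inhibitor of mTORC1, had the smallest p with metatherian CRX, each lower in 3 of 3 pairs. With eutherian CRX they were *Chac1* (-0.88), the antiproliferative gene *Btg2* (-0.53) and *Trib3* (-0.59). *Ppp1r15a*, first named GADD34, had -0.38 (SE 0.12) and -0.34 (SE 0.12). *Ddit3*, first named GADD153, had -0.12 and 0.20, and -0.07 and 0.0092 without the libraries numbered 3.

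Immediate early genes, which like *Gadd45b* respond quickly to serum and handling, were tested in 14 of 16 cases. With metatherian CRX 1 was lower at an unadjusted p under 0.05, *Zfp36* (-0.63, SE 0.16; adjusted p = 0.12, edgeR), which encodes an mRNA decay factor, where 10.5% of all genes were lower, and the median was -0.26. With eutherian CRX 5 were lower, where 6.34% of all genes were, and the median was -0.46, with the smallest p for *Fos* (-0.90, SE 0.16; adjusted p = 0.088, edgeR), *Dusp1* and *Zfp36* (-0.68). Their summed level was 718, 1199 and 830 CPM in control, 545, 523 and 968 CPM with eutherian CRX, and 701, 932 and 557 CPM with metatherian CRX. The sum overlapped between all 3 groups, unlike *Gadd45b* in control and metatherian CRX. At each library number, however, the sum was lower with metatherian CRX than in control, as *Gadd45b* was. The part of these genes in the level of *Gadd45b* was not tested.

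**Figure D4:**
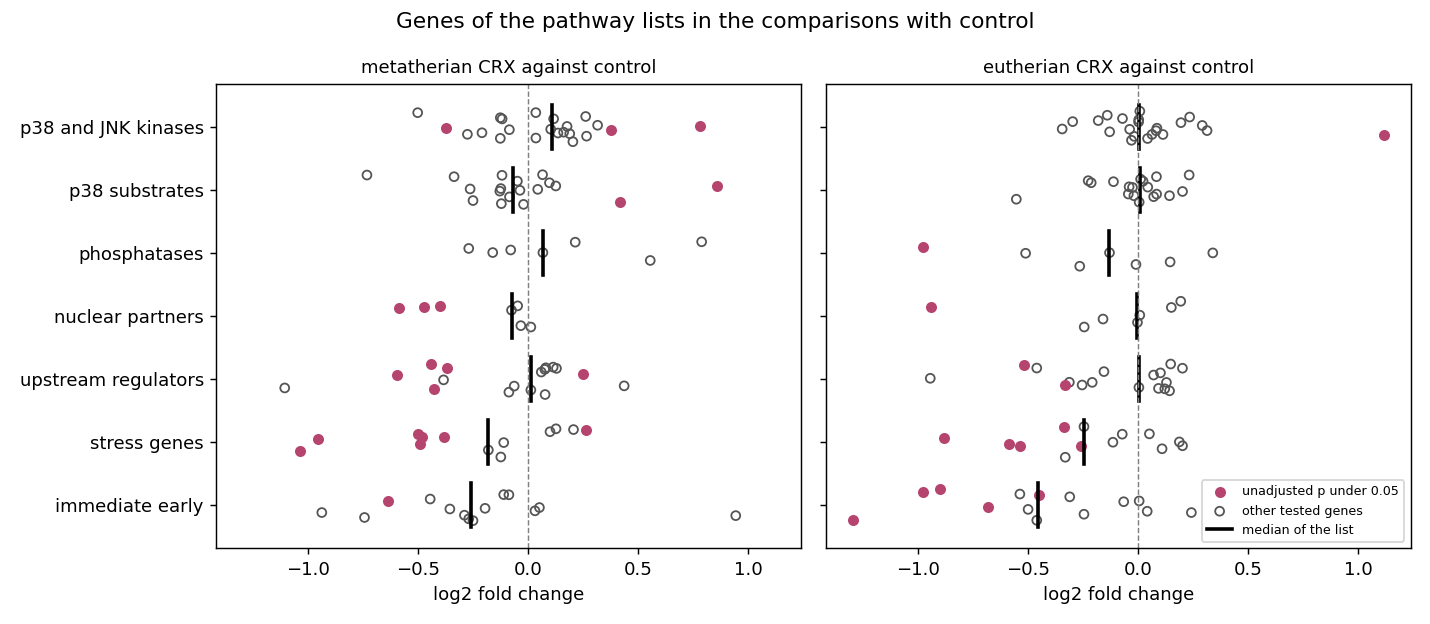
Log2 fold change (x axis) of the tested genes of 7 lists (y axis) against control, with filled points for an unadjusted p under 0.05 and a bar at the median of each list. Kinases and p38 substrates lie around 0 with medians between -0.067 and 0.11, whereas the stress and immediate early genes lie further to the left, with medians from -0.18 to -0.46.

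Markers of macrophages, cells in which *Gadd45b* is also expressed and which can occur in MEF cultures, were low but varied with the groups. The summed level of 10 markers was 48.2, 23.4 and 15.1 CPM in control, 27.1, 23.1 and 8.76 CPM with eutherian CRX and 6.85, 8.88 and 14.0 CPM with metatherian CRX. Metatherian CRX libraries thus lay wholly below control for these markers as for *Gadd45b*. *Lyz2* made up 23.8 CPM of the sum in control replicate 1, the pan-leukocyte marker *Ptprc* reached at most 1.65 CPM in a library, and *Aif1* had no count in 4 libraries. Only 3 of the 10 passed the filter, of which *Tyrobp* (-2.72, SE 0.95; adjusted p = 0.20, edgeR) and *Cd68* (-0.84, SE 0.32; adjusted p = 0.22) were lower with metatherian CRX at an unadjusted p under 0.05. *Tyrobp* had a mean of 2.86 FPKM in control and 0.328 FPKM with metatherian CRX. Within this contrast it thus passed the filter through the group where it was higher, so that its lower value is no test. Without control replicate 1, where the sum was highest, the log2 fold change of *Gadd45b* for metatherian CRX against control was -1.34. Replicate 3 had the lowest *Gadd45b* of each group, at the lowest marker sum of its group in control and with eutherian CRX and at the highest with metatherian CRX. The part of such cells in the level of *Gadd45b* was not tested.

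**Figure D5:**
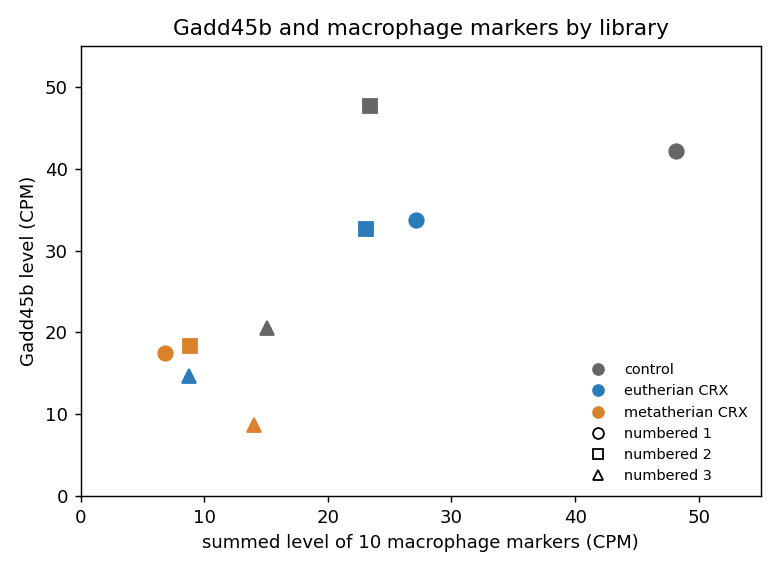
Level of *Gadd45b* (CPM, y axis) against the summed level of 10 macrophage markers (CPM, x axis) in the 9 libraries, with colours for groups and symbols for library numbers. The metatherian CRX libraries lie at the lower left, with marker sums from 6.85 to 14.0 CPM, and the control libraries have *Gadd45b* levels of 42.2, 47.7 and 20.6 CPM at marker sums of 48.2, 23.4 and 15.1 CPM, and those of eutherian CRX 33.7, 32.6 and 14.7 CPM at 27.1, 23.1 and 8.76 CPM.

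Of the 10 fibroblast markers, 7 were lower and 1 higher with metatherian CRX at an unadjusted p under 0.05, where 10.5% of all genes were lower and 9.04% higher. With eutherian CRX 3 were lower, where 6.34% of all genes were, and 0 passed the adjusted threshold in either comparison (edgeR). Their median log2 fold change was -1.21 with metatherian CRX and -0.40 with eutherian CRX, and -0.88 and -0.18 without the libraries numbered 3. *Thy1*, a surface marker of fibroblasts, had log2 fold changes of -1.14 and -1.34, the receptor gene *Pdgfrb* one of -0.90 with metatherian CRX, and *Pdgfra* one of 0.58. *Col1a1* and *Col1a2*, which encode type I collagen, had -1.43 and -1.27 with eutherian CRX, where the libraries numbered 3 differed by -2.82 and -2.62 and the others by between -0.48 and -0.70, and -0.61 and -0.59 without the libraries numbered 3. With metatherian CRX these 2 genes had -0.95 and -0.79 without those libraries. Markers of other cell types were low, with sums of at most 18.7 CPM for 7 endothelial, 12.8 CPM for 7 epithelial and 18.8 CPM for 6 muscle markers, and *Cldn5* and *Myf5* had no count in any library. Among them *Krt18* had a log2 fold change of 1.98 (SE 0.75; adjusted p = 0.22, edgeR) with metatherian CRX. Its mean was 2.60 FPKM with metatherian CRX and 0.876 FPKM in control. Within this contrast it thus passed the filter through the group where it was higher, so that its higher value is no test. The part of these differences in the levels of the *Gadd45* genes was not tested.

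Without the libraries numbered 3, the fit called 22.3% of all genes for metatherian CRX against control and 3.43% for eutherian CRX against control at an adjusted p under 0.05 (edgeR), and genes of the lists were among them. With metatherian CRX these were 2 of 22 kinases (*Mapk13* and the member *Map3k4*), 2 of 18 p38 substrates, 2 of 7 phosphatases and 2 of 7 nuclear partners. They were also 5 of 17 upstream regulators, 7 of 13 stress genes, 3 of 14 immediate early genes and 2 of 47 *Mrpl* genes. Of the markers, 9 of 10 fibroblast and 3 of 3 macrophage markers (*Tyrobp*, -4.06, *Lyz2*, -3.77, and *Cd68*, -1.07) were called. So were 1 of 1 endothelial marker (*Kdr*, -0.69) and 1 of 1 epithelial marker (*Krt18*, 2.04), with 0 of 1 muscle marker. Within this contrast *Krt18* and *Tyrobp* passed the filter through the group where they were higher, so that their calls are no test. In that fit the medians with metatherian and eutherian CRX were 0.045 and -0.023 for kinases, -0.024 and -0.0025 for p38 substrates and -0.053 and -0.22 for phosphatases. They were -0.36 and -0.13 for nuclear partners, -0.079 and -0.16 for upstream regulators, -0.30 and -0.25 for stress genes and -0.16 and -0.82 for immediate early genes. Of the 7 nuclear partners 5 were lower with metatherian CRX at an unadjusted p under 0.05 (edgeR), where 18.8% of all genes were. *Mef2a* had a log2 fold change of 0.92 with an adjusted p of 0.0014 (edgeR), *Mapk13* one of 0.87 (0.0070), *Nfkb1* one of -0.46 (0.0084) and *Pcna* one of -0.51 (0.010). With eutherian CRX 1 of 22 kinases, 1 of 7 phosphatases (*Dusp4*, -1.44), 1 of 7 nuclear partners (*Cdk1*, -0.78), 2 of 13 stress genes (*Chac1*, -0.80, and *Ppp1r15a*, -0.47), 2 of 10 fibroblast markers and 1 of 1 muscle marker (*Des*, -0.76) were called, and 0 in the lists of p38 substrates, upstream regulators, *Mrpl* genes and macrophage, endothelial and epithelial markers. *Kdr*, *Dusp4* and *Des* are named after their values were seen. A further 5 of 14 immediate early genes were called with eutherian CRX, among them *Fos* (-0.99, adjusted p = 0.028, edgeR), and 12 of 14 were lower at an unadjusted p under 0.05, where 10.5% of all genes were lower in that fit. *Mapk13* had 0.72 (adjusted p = 0.049, edgeR) and *Thy1* -0.98 (adjusted p = 0.0085) with eutherian CRX in that fit.

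The library number marked the levels of several members. In all 3 groups the library numbered 3 was the lowest for *Gadd45b* and *Gadd45g* and the highest for *Map3k4* and *Mapk14*. Over all tested genes it was the lowest in all 3 groups for 13.1% and the highest for 13.3%. Across the 9 libraries, which share groups, numbers and scaling, log2 CPM of *Gadd45b* correlated with that of *Gadd45g* at r = 0.89 and with that of *Mapk14* at r = -0.88. In the 6 libraries numbered 1 and 2 these values were 0.93 and -0.68. *Gadd45a* and *Gadd45b* had r = -0.68 over 9 libraries and -0.52 over 6.

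The 5 genes whose log2 CPM was most like that of *Gadd45b* over the 9 libraries, by Pearson's r, were *Zcchc3* (0.991), *Wwc1* (0.984), *Tmem109* (0.981), *LOC102632538* (0.980) and *Glis3* (0.980). In the 6 libraries numbered 1 and 2 their r lay between 0.950 and 0.989. Their log2 fold changes for metatherian CRX against control were -0.55, -0.71, -0.47, -1.86 and -0.89 in that order. For eutherian CRX against control they were -0.18, -0.11, -0.08, -0.77 and -0.30. All 5 thus had negative values in both comparisons, which the choice by likeness to *Gadd45b* sets.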

How the data were processed

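Gene expression was measured by RNA-seq in 9 MEF libraries, 3 per group, with groups taken from the sample labels. The authors aligned paired reads with STAR to mm10 (GRCm38), counted them per gene with featureCounts and deposited raw counts without normalization or pooling. The annotation release and strand option are not given in the sources used here.

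Counts were analysed with edgeR 4.0.16 in R 4.3.3. Of 22068 genes, 10100 passed filterByExpr and exceeded a mean of 2 FPKM in 1 group or more, with FPKM from the deposited counts and exon lengths. The quasi-likelihood test used TMM factors, all 9 libraries and the replicate number as a block, with Benjamini-Hochberg adjustment over 10100 genes and calls under 0.05. The number was used as the block on the assumption that it marks the study's sample pairs, which the sources used here do not state. SE was taken as the size of each log2 fold change over the root of its F statistic, and 2 was the prior count of log2 CPM. The script was tested on simulated data. Floors for a count of 0 cover counting error only. Counts of replicates differed by more than sampling noise.

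The members and lists were chosen with earlier results of these data known. Named genes are the 7 members, fixed pathway genes, up to 3 genes of smallest unadjusted p per list and comparison with control, and the 5 genes most like *Gadd45b*. *Atf3*, *Ddit3*, *Dusp1*, *Egr1* and *Jun* stand on 2 lists. Alternatives were no block, DESeq2 1.42.0, other scalings and filters, 6 libraries, and libraries or numbers left out. A result on 1 feature of the gene models is not reported here.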

Additional observations from a re-analysis of the deposited data

How the results depend on the processing

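The log2 fold change of *Gadd45b* lay between -1.34 and -1.25 for metatherian CRX against control, -0.52 and -0.41 for eutherian CRX against control, and -0.89 and -0.79 for metatherian against eutherian CRX in the 19 alternatives, and that of *Gadd45g* between -2.04 and -1.05, -1.41 and -0.50, and -0.90 and -0.26. Counts of calls moved far more. Those of members include *Gadd45b*, which was chosen by its value for metatherian CRX against control, so that they are no test of it. For metatherian CRX against control, 1 member and 3 genes in all were called, 0 and 0 without the replicate block, 2 and 1004 with DESeq2, and 398 genes with only the 6 libraries compared. With libraries or numbers left out, from 0 to 3 members and from 0 to 2252 genes were called, 2 and 888 when eutherian CRX replicate 3 was left out, 1 and 484 when metatherian CRX replicate 3 was, 3 and 2252 without all libraries numbered 3, and 0 and 0 without any other library or number. For eutherian CRX against control, 61 genes were called, 0 without the block, 333 and 1 member with DESeq2, 109 without a filter, 0 with 6 libraries, and from 0 to 346 with libraries or numbers left out, 16 without metatherian CRX replicate 2, 114 without metatherian CRX replicate 3, 346 without the libraries numbered 3, and 0 in the rest. For metatherian against eutherian CRX, DESeq2 called 317 genes and 1 member, and leaving out libraries or numbers gave from 0 to 2280 genes and from 0 to 2 members, 349 and 1 when eutherian CRX replicate 3 was left out and 147 and 1 when metatherian CRX replicate 3 was. The cause was not tested.

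Members near 0 changed sign. Without the replicate block *Map2k7* was -0.0016 for eutherian CRX against control and *Map3k4* -0.026 for metatherian against eutherian CRX, and with upper-quartile scaling *Map3k4* and *Map2k7* were -0.0100 and -0.0016 in the latter. With libraries or numbers left out, metatherian CRX against control ranged from -0.054 to 0.25 for *Gadd45a*, from -0.64 to 0.12 for *Gadd45gip1* and from -0.069 to 0.19 for *Map2k7*. Eutherian CRX against control ranged from -0.20 to 0.44 for *Gadd45gip1* and from -0.083 to 0.090 for *Map2k7*, and metatherian against eutherian CRX from -0.85 to 0.065 for *Gadd45gip1*, from -0.13 to 0.22 for *Map3k4* and from -0.094 to 0.19 for *Map2k7*. The library numbers are not shown to mark pairs, since deviations from the group mean correlated over 0.1 in 8 of 9 same-number pairs, with a lowest r of 0.0034, and libraries of different numbers reached 0.72.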
